A study of Mus musculus with 2 samples.

Results

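The genes described here are 8 cell surface genes of homeostatic microglia: P2ry12, P2ry13, Gpr34, Tmem119, Siglech, Slc2a5, Selplg and Fcrls. They were chosen by symbol, and all 8 were found among the 32285 genes listed in both single-cell count matrices. The study took cells from the central nervous system (CNS) of mice transplanted with haematopoietic stem and progenitor cells, and asked how the microglia-like progeny of Cx3cr1 haplo-insufficient and wild-type donors differ. There were 2 libraries, 1 labelled Cx3cr1-/+ (Het) and 1 labelled Cx3cr1+/+ (WT), both described as microglia-like cells. The recipients of both were CD45.1 mice conditioned with busulfan, 4 doses of 25 mg/kg, and given the cells intravenously at a donor to recipient ratio of 1:1. The protocol, which is the same text for both libraries, names only Cx3cr1-/+ mice as the source of the sorted GFP+ and GFP- lineage-negative cells, so it does not say which donor cells the WT library came from. Conditioned animals keep cells of their own, and the matrices carry no mark of donor or host. How many mice each library pooled, their sex and age and the interval since the transplant are not in the labels. With 1 library per genotype there was no test across samples. Every difference compares these 2 libraries, and the 95% intervals cover counting error only.

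Microglia are the resident macrophages of the CNS, and in the healthy tissue they survey their surroundings with motile processes. In that state they express a set of receptors and adhesion molecules that is commonly called homeostatic. The set is known to be turned down when microglia are activated by damage or disease. Macrophages that enter the CNS from the blood after conditioning are known to express several of these genes at lower levels than resident microglia do. P2ry12 and P2ry13 encode receptors for extracellular ADP, the first of which guides microglial processes towards injury. Gpr34 encodes a receptor for lysophosphatidylserine. Tmem119 encodes a transmembrane protein used as a marker of resident microglia. Siglech encodes a sialic acid-binding lectin that is also made by plasmacytoid dendritic cells. Slc2a5 encodes the fructose transporter GLUT5. Selplg encodes PSGL-1, the selectin ligand carried by most leukocytes. Fcrls encodes an Fc receptor-like scavenger receptor found in mouse.

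On GRCm38, P2ry12 lies on chromosome 3 from 59216272 to 59262871 and P2ry13 from 59207892 to 59210882, both on the minus strand, 5389 bases apart and inside Med12l, a gene of the plus strand. Med12l had only 43 (Het) and 57 (WT) UMIs (unique molecular identifiers, the counted transcripts) in the microglia-like class described below. Fcrls lies on the same chromosome from 87250758 to 87263738, on the minus strand. Tmem119 (113793729 to 113800516) and Selplg (113818536 to 113832644) are both on the minus strand of chromosome 5, 18019 bases apart. Gpr34 is on chromosome X from 13632089 to 13640858 on the plus strand and overlaps Cask on the minus strand. Siglech is on chromosome 7 (55768178 to 55778925) and Slc2a5 on chromosome 4 (150119283 to 150144169), both on the plus strand. All 8 are annotated as protein coding.

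Since most of the 8 genes move together across clusters (below), their upstream sequence was read from the RefSeq promoter table (GRCm38.p6), which matched P2ry12, P2ry13, Siglech, Slc2a5 and Fcrls. The 250 bases before each start were searched on both strands for a pair of motifs whose letters are typical of sites for PU.1 and other ETS factors. PU.1 is the ETS factor that macrophages depend on. The motifs were chosen after the sequences had been seen, and they overlap each other in 5 letters. GAGGAAG was found for 2 of the 5 genes (P2ry13 and Fcrls) and for 3244 of the 27025 genes in the table. For 3 of the 5 (P2ry12, Siglech and Fcrls) and for 22.2% of all genes the motif GGAAGT was found. Either of them was found for 4 of the 5 and in 29.3% of all genes. The windows of 60 bases around the matches that lie outside the genes follow, 5′ to 3′ on the strand of the gene, with the match in capitals (ACTTCC is the second motif on the opposite strand).
P2ry12, chr3:59263004-59263063, minus strand: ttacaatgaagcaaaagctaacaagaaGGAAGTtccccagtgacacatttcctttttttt
P2ry13, chr3:59210897-59210956, minus strand: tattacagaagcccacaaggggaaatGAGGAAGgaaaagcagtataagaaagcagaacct
Siglech, chr7:55768001-55768060, plus strand: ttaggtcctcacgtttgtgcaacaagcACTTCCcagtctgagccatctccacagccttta
Counted from the start that RefSeq gives, the matches began 51 bases upstream for P2ry12 (start 59262985, 114 bases upstream of the GENCODE start above), 48 for P2ry13 (59210882, the same in both) and 156 for Siglech (55768184, 6 bases downstream of the GENCODE start). For Fcrls the RefSeq start, 87263524, lies 214 bases downstream of the GENCODE start, so that its matches, 144 and 75 bases upstream of it, fall inside the gene as GENCODE gives it, and they are not printed. A match of letters is a description of the sequence, not of binding.

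The Het library held 17828344 UMIs in 1837 barcodes and the WT library 22062823 UMIs in 2359, of which 1489 and 1949 cells were kept. Clustering both libraries together without the 8 genes gave 16 clusters, 3 of them unnamed. The microglia-like class is 2 clusters: a deep one of 336 cells (median 8768.5 UMIs a cell) led by Adamts1, Cd209f, Il1a and Olfml3, and a shallow one of 320 cells (median 2642 UMIs) led by Ltc4s, Klk8, Sparc and Syngr1. The label of both libraries, microglia-like, therefore fits 264 of 1489 and 392 of 1949 kept cells by these markers. Neutrophil-like, monocyte-like, dendritic cell-like and other cells made up the rest. Of the barcodes, 339 were listed in both libraries. Among the 178 of these that were kept in both, 165 fell in the same class in both, and how they came to be in both was not tested. The microglia-like class held 21 such Het cells and 13 such WT cells. Some ratios, among them the Het over WT sum, are given with and without them, and all other results with them.

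All 8 genes were more than 1.5-fold higher in the microglia-like class than in the monocyte-like classes of the same library, where 20.6% (Het) and 18.6% (WT) of all genes tested were. For 7 of the 8 the difference was 24.8-fold to 65.3-fold. Levels are given as CPM, the UMIs of a gene per 1000000 UMIs of the cells summed. P2ry12 stood at 757 CPM in Het and 941 CPM in WT microglia-like cells, against 22.7 and 25.5 CPM in monocyte-like cells. P2ry13 stood at 137 and 129 CPM against 5.08 and 5.19 CPM. Gpr34 stood at 598 and 640 CPM against 12.9 and 21.0 CPM. For these 3 receptors the order of the 2 classes was the same in both libraries, with intervals far apart. Tmem119 stood at 597 and 671 CPM against 12.9 and 14.3 CPM. Siglech stood at 276 and 389 CPM against 7.82 and 10.4 CPM. For Slc2a5 the levels were 76.6 and 90.9 CPM, while the monocyte-like cells held only 3 Het and 10 WT UMIs of it. Its ratio in Het, 65.3-fold, has a counting interval from 22.0 to 319. Fcrls stood at 1591 and 1550 CPM against 32.9 and 34.5 CPM. Selplg differed least between the classes, at 853 and 1029 CPM against 236 and 239 CPM, or 3.62-fold in Het (interval 3.30 to 3.97) and 4.30-fold in WT (4.02 to 4.61). The sum of the 8 was 14.7-fold higher in Het and 15.4-fold in WT, on the log2 scale 3.88 (3.78 to 3.98) and 3.95 (3.88 to 4.02). Without Selplg it was 42.2-fold and 39.0-fold higher.

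**Figure D1:**
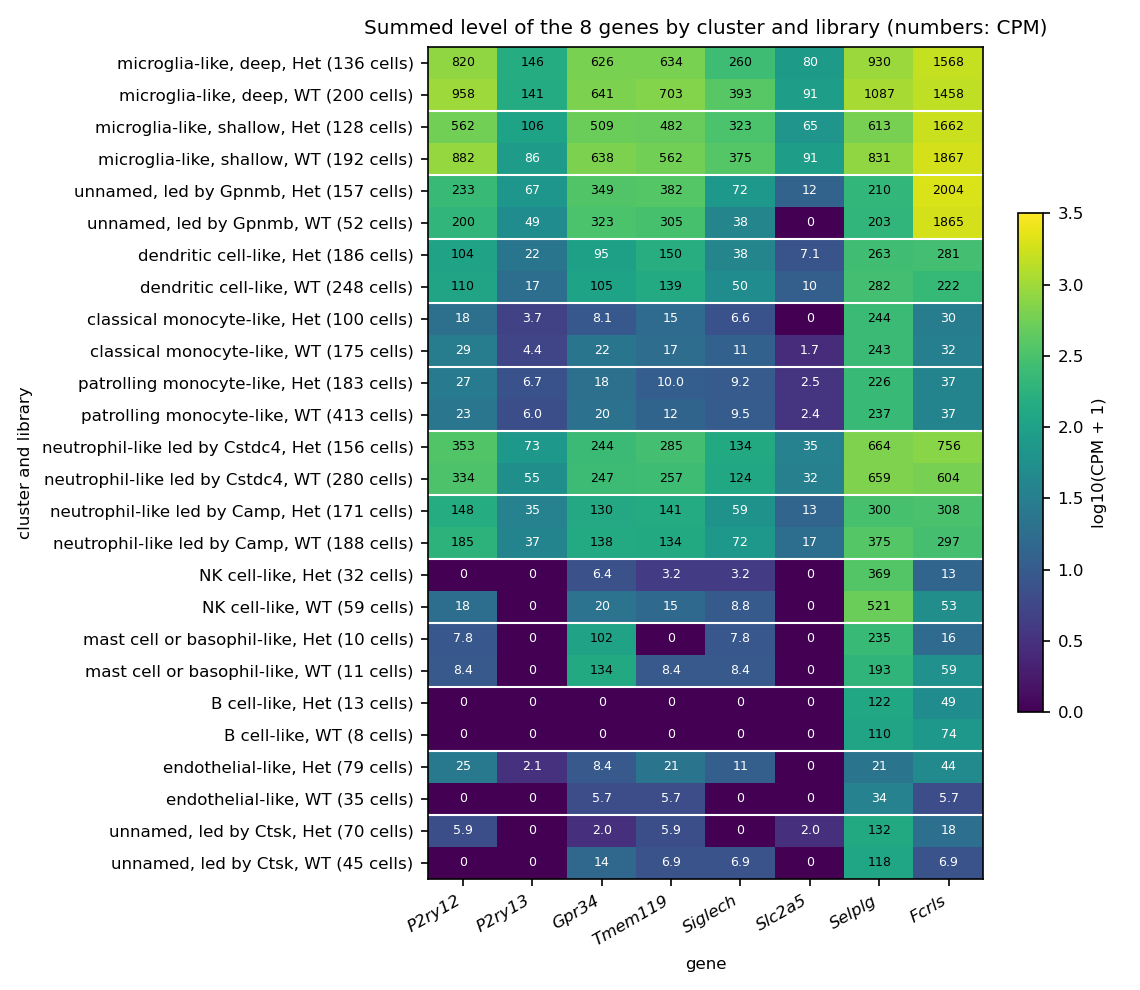
Level of each of the 8 genes (columns, CPM printed in each cell and coloured as log10 of CPM plus 1) in 13 clusters of each library (rows, with the number of cells). Levels of all 8 are high in both microglia-like clusters, Selplg is present in every leukocyte cluster, and in the cluster led by Gpnmb Fcrls alone stays at the microglia-like level.

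Selplg was also found at some level in all the other leukocyte classes. NK cell-like cells had 369 (Het) and 521 (WT) CPM of Selplg and no UMI of P2ry13 or Slc2a5. Outside the microglia-like class Gpr34 stood at 102 and 134 CPM in mast cell or basophil-like cells (10 Het and 11 WT cells), where P2ry12 had 1 UMI in each library. Dendritic cell-like cells, summed, had lower levels of most members, with 281 and 222 CPM of Fcrls and 104 and 110 CPM of P2ry12. These levels were uneven across the cells of the class (below). The 2 neutrophil-like clusters also showed all 8 genes, with P2ry12 between 148 and 353 CPM. This signal followed C1q (the sum of C1qa, C1qb and C1qc), macrophage genes that neutrophils are not known for. Neutrophil-like cells with no C1q UMI had a summed level of 309 CPM in Het (21 cells) and 329 CPM in WT (50 cells), of which Selplg made up 257 and 271 CPM. Those with at least 10 C1q UMIs had 1996 CPM (195 cells) and 2136 CPM (273 cells), and a median of 22922 and 21167 UMIs a cell. In them the 7 genes other than Selplg had 20.6 (interval 20.1 to 21.1) and 22.4 (21.9 to 22.8) UMIs per 100 C1q UMIs. The same measure was 22.7 and 24.4 in the microglia-like class and 22.2 and 21.1 in monocyte-like cells. It was 15.7 and 15.4 in the cluster led by Gpnmb, and 7.80 and 9.06 in dendritic cell-like cells. The part of free RNA or of droplets with more than 1 cell in these levels was not tested.

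Measured per cell, most microglia-like cells had UMIs of several of the 8 genes. Whether the genes fell in the same cells more often than their separate shares would give was not tested. To compare cells of unlike depth, each cell was thinned to 2000 UMIs, which left 211 Het and 296 WT microglia-like cells and left out 53 and 96 shallower ones. At least 4 of the 8 genes had a UMI in 137 of the 211 (64.9%) and 208 of the 296 (70.3%). In monocyte-like cells this was so for 0 of 250 and 2 of 518, and in NK cell-like cells for 0 of 25 and 0 of 51. In dendritic cell-like cells it was so for 10 of 137 and 20 of 217. P2ry12 had a UMI in 60.7% (53.7 to 67.3) of Het and 70.9% (65.4 to 76.1) of WT microglia-like cells, and in 78.4% and 81.1% before thinning. In monocyte-like cells it had one in 5.60% and 4.25%, and in NK cell-like cells in 0 of 25 and 1 of 51. Fcrls was detected in 89.6% and 84.8% of thinned microglia-like cells, Selplg in 72.5% and 75.0%, and Slc2a5 in 15.6% and 13.5%. Unthinned, microglia-like cells had a median of 4501.5 (Het) and 4130.5 (WT) UMIs, and NK cell-like cells 7280 and 4811.

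**Figure D2:**
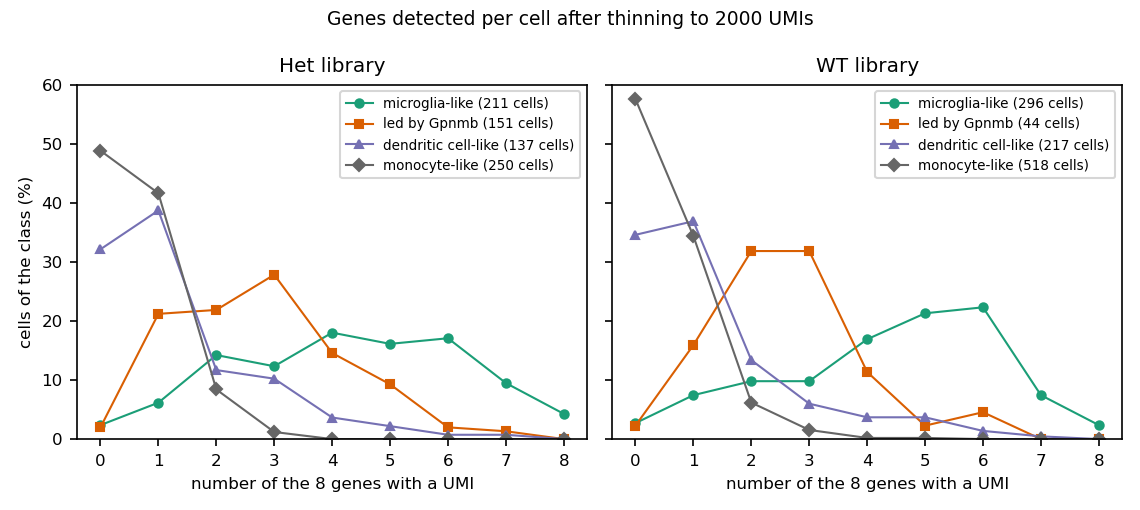
Share of cells (vertical axis, %) by the number of the 8 genes with a UMI after thinning to 2000 UMIs (horizontal axis), for 4 populations of the Het library (left) and the WT library (right). Microglia-like cells are most often at 4 to 6 genes, cells of the cluster led by Gpnmb at 2 to 3 and monocyte-like cells at 0 or 1.

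Between the libraries, the summed level of the 8 genes in the microglia-like class was slightly lower in Het (4883 CPM) than in WT (5440 CPM), a log2 ratio of -0.16 (-0.19 to -0.12). No member was past 1.5-fold: 0 of 8 were higher, where 2.1% of 5772 genes tested were, and 0 of 8 lower, where 0.641% were. The median log2 ratio was -0.21 over the members and 0.02 over all genes tested. Siglech differed most, at 276 (Het) and 389 (WT) CPM, a log2 ratio of -0.50 (-0.64 to -0.36). P2ry12 stood at -0.31 (-0.40 to -0.23), Selplg at -0.27 (-0.35 to -0.19), Slc2a5 at -0.25 (-0.53 to 0.03) and Tmem119 at -0.17 (-0.27 to -0.07). For Gpr34 (-0.10, from -0.20 to 0.00), P2ry13 (0.08, from -0.13 to 0.30) and Fcrls (0.04, from -0.03 to 0.10) the interval reached 0. Without the 21 Het and 13 WT cells whose barcode was listed in both libraries, the sum was 5039 (Het) and 5104 (WT) CPM and its log2 ratio -0.02 (-0.06 to 0.02). Siglech then stood at -0.19 (-0.34 to -0.04) and P2ry12 at -0.18 (-0.27 to -0.09). When each library was clustered alone, the sum was higher in Het, at 0.39. The class was then made up differently, with 184 Het and 403 WT cells rather than 264 and 392. In the deep cluster only Siglech was past 1.5-fold (260 CPM in Het and 393 CPM in WT, log2 ratio -0.59), where 1.16% of all genes tested were lower. In the shallow cluster only P2ry12 was (562 and 882 CPM, -0.65), where 3.74% were. Without the barcodes listed in both libraries no member was past 1.5-fold in either cluster, with Siglech at -0.22 in the deep one and P2ry12 at -0.58 in the shallow one. The sum of the 8 in the deep cluster then lay on the other side of 0, at 0.06 (0.02 to 0.11) against -0.11 with all cells, and in the shallow one it was -0.25 against -0.30.

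**Figure D3:**
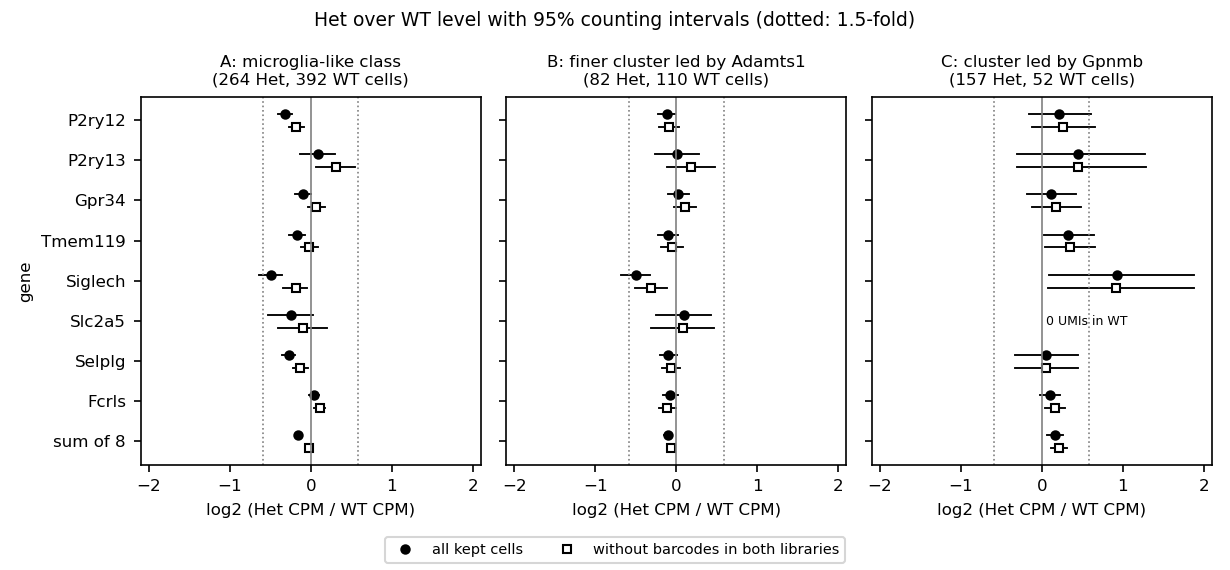
Log2 ratio of the Het over the WT level (horizontal axis) for each gene and the sum of the 8, with 95% counting intervals, in the microglia-like class, a finer cluster led by Adamts1 and the cluster led by Gpnmb. Filled circles are all kept cells and open squares leave out barcodes listed in both libraries, and the dotted lines mark 1.5-fold. In the class and the finer cluster all points lie within 1.5-fold, and in the Gpnmb-led cluster Siglech lies past it.

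The deep cluster was itself mixed. At a clustering resolution of 1.0, its cells fell mainly into 3 finer clusters, of which that led by Adamts1 (82 Het and 110 WT cells, with Nav3 and Sall1 among the leading genes) had the highest levels. There the sum of the 8 was 7798 CPM in Het and 8366 CPM in WT, a log2 ratio of -0.10 (-0.15 to -0.06). Without the barcodes listed in both libraries that ratio was -0.06 (-0.11 to -0.01). P2ry12 stood at 1402 and 1522 CPM, Tmem119 at 1048 and 1124 CPM and Selplg at 1555 and 1665 CPM. For Siglech the levels were 445 and 630 CPM (log2 ratio -0.50, from -0.69 to -0.32), or -0.31 (-0.51 to -0.11) without the barcodes listed in both libraries. No member of the 8 was past 1.5-fold in this finer cluster, where 4.15% of all genes tested were higher and 2.9% lower. The finer cluster led by F10, which the markers named patrolling monocyte-like, had 2544 CPM in Het (44 cells) and 2755 CPM in WT (84 cells). Its C1q stood at 9705 and 8733 CPM, against 493 and 522 CPM in the patrolling monocyte-like cluster at resolution 0.5. The finer cluster led by Ccl7, which met no name, had 1730 CPM (71 cells) and 1544 CPM (88 cells). Only 13 of its Het and 12 of its WT cells were in the microglia-like class, so its level is mostly that of other cells. Its leading genes included genes of border-associated macrophages (Cbr2 and Lyve1) and H2-Eb1 and Cd74, which also led the dendritic cell-like cluster. The finer cluster led by Ltc4s, nearly the same cells as the shallow cluster, had 4331 CPM (126 cells) and 5373 CPM (191 cells). The summed level in the Adamts1-led cluster was thus well above that in the F10-led one, and the class holds cells of both.

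**Figure D4:**
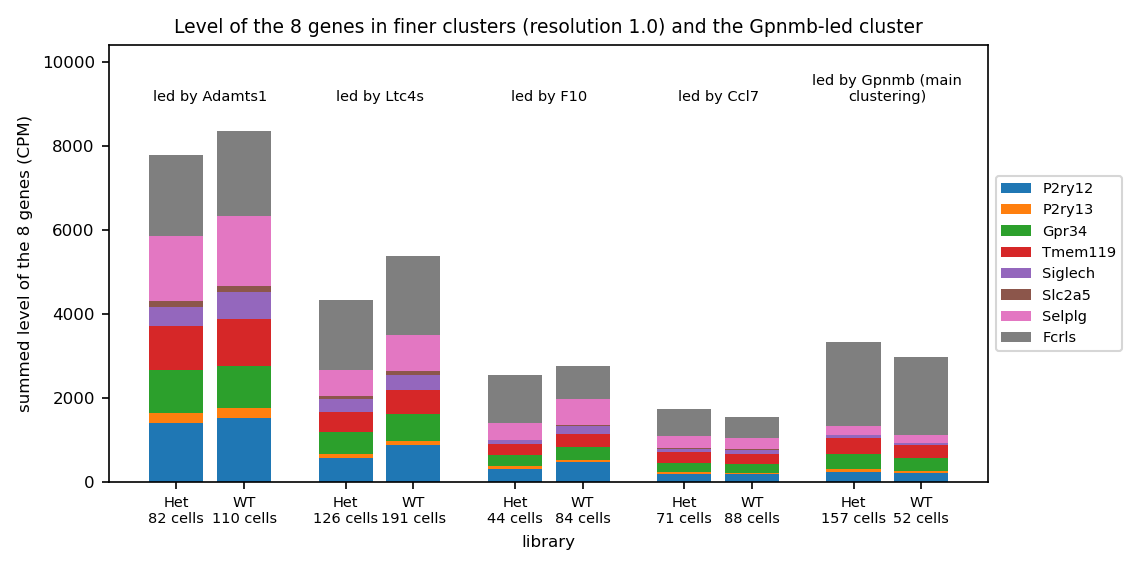
Summed level of the 8 genes (vertical axis, CPM, stacked by gene) in 4 finer clusters and the cluster led by Gpnmb, with a bar for each library and its number of cells. The Adamts1-led cluster has the highest bars in both libraries, and Fcrls makes up most of the Gpnmb-led bars.

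Cells were also marked by sex-linked transcripts, which neither the clustering nor the choice of the 8 genes used. The labels name no sex, and no label ties either mark to donor or host. An Xist-marked cell has at least 1 Xist UMI and none of Ddx3y, Eif2s3y, Kdm5d and Uty, and a Y-marked cell the reverse. In the Het microglia-like class 152 cells were Xist-marked and 1 was Y-marked. The WT class held 110 Xist-marked cells, 54 Y-marked cells, 32 with both marks (median depth 21590.5 UMIs) and 196 with neither (2517 UMIs). Within it all 8 genes were higher in Xist-marked than in Y-marked cells beyond 1.5-fold, where 26.9% of 4425 genes tested were. P2ry12 stood at 1376 CPM in Xist-marked and 267 CPM in Y-marked cells, a log2 ratio of 2.37 (2.12 to 2.62). Siglech stood at 566 and 111 CPM (2.35, from 1.97 to 2.74) and P2ry13 at 193 and 38.9 CPM (2.32, from 1.68 to 3.02). Gpr34 followed at 960 and 214 CPM (2.17) and Tmem119 at 990 and 277 CPM (1.84). These receptors and Tmem119 were thus several times lower in the Y-marked cells. Slc2a5 stood at 112 and 33.6 CPM (1.74, from 1.03 to 2.52) and Selplg at 1501 and 472 CPM (1.67). Fcrls differed least, at 1960 and 901 CPM (1.12, from 0.98 to 1.26). The sum was 7659 against 2314 CPM, a log2 ratio of 1.73 (1.64 to 1.81), and 1.67 (1.58 to 1.75) without barcodes listed in both libraries.

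**Figure D5:**
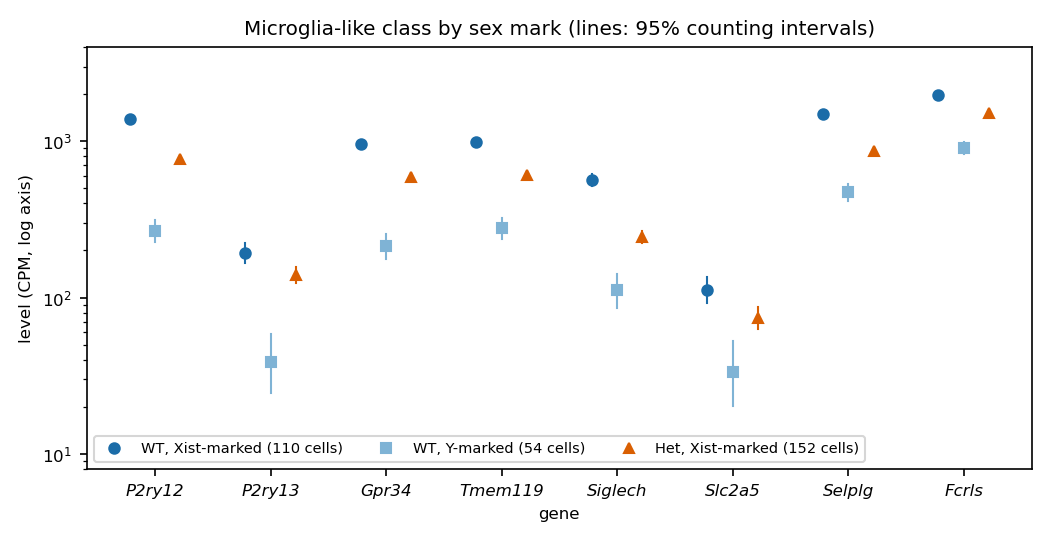
Level of each gene (vertical log axis, CPM) in 3 groups of microglia-like cells: Xist-marked WT, Y-marked WT and Xist-marked Het cells, with lines for 95% counting intervals. For all 8 genes the Xist-marked WT cells are highest, the Xist-marked Het cells in between and the Y-marked WT cells lowest, an order that differed in the shallow cluster alone.

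Other measures moved with the marks. Xist-marked WT cells had 21085 CPM of C1q and 7728 CPM of Apoe, a lipid carrier that macrophages secrete, and Y-marked cells 11306 and 15905 CPM. S100a8 and S100a9, defining genes of neutrophils, summed to 964 and 2298 CPM, and the median depth was 6948 and 8058 UMIs. The finer clusters split the same way: the Adamts1-led cluster held 85 Xist-marked and 0 Y-marked WT cells (16 had both marks), and the F10-led one 11 and 35. Within the F10-led cluster the sum was still 5741 against 2125 CPM (log2 ratio 1.43, from 1.27 to 1.60), and within the Ltc4s-led one 12356 against 3781 CPM (5 and 16 cells). When the clustering was run with the 8 genes, the deep cluster lost its name, and the class then held 4 Xist-marked and 16 Y-marked WT cells with a log2 ratio of 0.26 (-0.27 to 0.76). The part of other cells' RNA and of cluster makeup in the difference was not tested. A gap between the marks was not particular to the microglia-like class. In dendritic cell-like WT cells the sum was 3147 CPM in 23 Xist-marked and 515 CPM in 127 Y-marked cells. In neutrophil-like WT cells it was 3298 CPM in 45 Xist-marked and 810 CPM in 196 Y-marked cells, with C1q at 9911 and 2736 CPM. In the cluster led by Gpnmb the sum was 2857 CPM in 7 and 2782 CPM in 20, a log2 ratio of 0.04 (-0.24 to 0.31). Within the shallow cluster the order of the groups was another: 22 Xist-marked Het cells had 2344 CPM of the 8 genes and 17 Y-marked WT cells 3657 CPM, a log2 ratio of -0.64 (-0.84 to -0.44).

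Compared by the Xist mark, which did not pick matched cells in the 2 libraries, the libraries differed more than the whole classes did. Cells of the class with neither mark went the other way, with 5368 CPM of the 8 genes in 111 Het and 4860 CPM in 196 WT cells. Xist-marked Het cells of the class had 4787 CPM of the 8 genes and Xist-marked WT cells 7659 CPM, a log2 ratio of -0.68 (-0.72 to -0.63). Of the 8, P2ry12, Gpr34, Tmem119, Siglech, Slc2a5 and Selplg were lower in Het beyond 1.5-fold, 6 in all, where 7.29% of 6008 genes tested were. Without the barcodes listed in both libraries only P2ry12, Siglech and Selplg were, and the log2 ratio of the sum was -0.57 (-0.62 to -0.52). The 7.29% belongs to all kept cells, and no share over all genes was set beside this smaller count. Siglech stood at 246 (Het) and 566 (WT) CPM, and P2ry12 at 765 and 1376 CPM. Within the Adamts1-led finer cluster, 77 Xist-marked Het and 85 Xist-marked WT cells had 7842 and 8641 CPM, a log2 ratio of -0.14 (-0.19 to -0.09). The Xist-marked cells were made up differently in the 2 libraries, with 38 of the 152 Het but 10 of the 110 WT cells in the F10-led cluster. The mark itself was also spread differently. Over all kept cells, 1054 were Xist-marked and 36 Y-marked in Het, against 230 and 780 in WT. The difference between Xist-marked cells is therefore not one between like sets of cells, and the part of genotype in it was not tested.

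A cluster led by Gpnmb, Spp1, Apoe and Ms4a7, genes known from lipid-handling and disease-associated macrophages, held 157 Het and 52 WT cells and met no name. All 8 genes but Fcrls were lower in it than in the microglia-like class beyond 1.5-fold, 7 of 8 in both libraries, where 15.6% (Het) and 20.3% (WT) of all genes tested were lower. P2ry12 stood at 233 CPM in Het and 200.5 CPM in WT, 3.25-fold and 4.69-fold below the class. Selplg stood at 210 and 203 CPM, 4.06-fold and 5.06-fold below. These are close to the 236 and 239 CPM of Selplg in monocyte-like cells, while P2ry12 was still higher than there. Siglech stood at 71.8 and 37.8 CPM, 3.84-fold and 10.3-fold below. Slc2a5 had 18 UMIs in Het (12.1 CPM) and 0 in WT, which against 3 counts is at least 10.4-fold lower than the class. The other receptors differed less: Gpr34 stood at 349 and 323 CPM (1.71-fold and 1.98-fold below), Tmem119 at 382 and 305 CPM (1.56-fold and 2.20-fold), and P2ry13 at 67.1 and 49.4 CPM (2.04-fold and 2.61-fold). Fcrls went the other way, with 2004 CPM against 1591 CPM in Het (log2 ratio 0.33, from 0.26 to 0.40) and 1865 CPM against 1550 CPM in WT (0.27, from 0.15 to 0.39). Set against the Adamts1-led finer cluster alone, Fcrls was level in Het (0.05, from -0.03 to 0.14) and slightly lower in WT (-0.13), and the same 7 genes were lower, where 27.3% (Het) and 31.3% (WT) of all genes tested were. The 8 genes had no part in the clustering, but other genes of the same cells did, so these differences are a description of the cluster. They also belong to the main settings. With no cell filter and at resolution 0.25, 298 and 302 of the 336 deep cells fell in an unnamed cluster also led by Gpnmb, Spp1, Apoe and Ms4a7. The contrast was not rerun in those settings. Between the libraries the sum in the main cluster of 157 Het and 52 WT cells was 3329 (Het) and 2984 (WT) CPM, a log2 ratio of 0.16 (0.06 to 0.26). Siglech, with 107 Het and 13 WT UMIs, was the only member with UMIs in both libraries past 1.5-fold (0.93, from 0.09 to 1.88), where 11% of 4373 genes tested were higher.

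Other genes of the same pathways were read in the microglia-like class from lists chosen with earlier results of these data known. Of 34 other homeostatic microglia genes, 0 were past 1.5-fold between the libraries (median log2 ratio -0.06). As 2.1% of all genes tested were higher and 0.641% lower, counts of 0 in this and the shorter lists are near that background. Cst3, a secreted protease inhibitor, stood at 20409 (Het) and 24100 (WT) CPM. None of 10 measured purine receptors, ectoenzymes and signalling partners was past 1.5-fold, with Gnai2, a G protein subunit, at 913 and 953 CPM and Entpd1, which breaks down extracellular ATP and ADP, at 247 and 273 CPM. The same held for 8 selectins and enzymes that modify PSGL-1 (St3gal6, a sialyltransferase, at 153 and 159 CPM and Tpst2, a tyrosine sulfotransferase, at 139 and 164 CPM) and for 9 genes of glucose transport and fructose use (Txnip at 502 and 471 CPM and Aldoa, an aldolase, at 289 and 320 CPM). Of 8 other Siglecs, Fc receptor-like genes and adaptors, only Mag, a myelin protein, was past it (48 and 38 UMIs, log2 ratio 0.60, from -0.04 to 1.25). Between Xist-marked and Y-marked WT cells, 31 of 32 other homeostatic genes with at least 50 UMIs were higher beyond 1.5-fold, with a median log2 ratio of 1.39, where 26.9% of all genes tested were higher and 16.5% lower. The members' median was 2.0 and that of all genes 0.12. Entpd1 stood at 418 and 95.4 CPM there. Of 6 other Siglecs, Fc receptor-like genes and adaptors, 1 was higher and 3 were lower.

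Across 19 sums of at least 50 cells (11 clusters, by library), each member was correlated with the mean of the other 7 on the log2 scale of CPM plus 10. Pearson's r was 0.99 for P2ry12, 0.98 for P2ry13 and Gpr34, 0.97 for Tmem119 and Siglech, 0.94 for Fcrls, 0.88 for Slc2a5 and 0.69 for Selplg. Sums of 1 library share its depth and free RNA, so these values are descriptions. Among 8802 other genes ranked, Ptgs1, which encodes cyclooxygenase 1, was most like the mean of the 8 (0.98), followed by Bhlhe41 (0.97), Ltc4s (0.97), Olfml3, Capn3, Golm1, Gpr84, Bin1, Cmtm6 and Gal3st4 (0.95).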

How the data were processed

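The data are single-cell RNA libraries made with 10x Genomics 3′ v3.1 chemistry from CNS cells, 1 per genotype. The authors deposited a filtered matrix of UMI counts for each, made with Cell Ranger on mm10. The version is 4.0 per the submitters' processing notes and 5.0.0 per the file headers. Members and gene lists were chosen with earlier results of these data known. Cells with at least 500 genes and at most 10% mitochondrial UMIs were kept. They were scaled to 10000 UMIs, logged and clustered without the members by scanpy 1.11.5 (2000 variable genes, 30 components, 15 neighbours, Leiden resolution 0.5). A cluster took the name of the marker list with the most genes among its 10 leading genes, given at least 3 markers 1.5-fold higher than elsewhere and no other list with more. No doublet caller was run. Counts of the 8 genes were summed per class and library and divided by all UMIs of those cells, giving CPM. Intervals are exact at 95% (Poisson for levels, conditional binomial for ratios, Clopper-Pearson for shares), and a floor is 3 counts. A gene counted as tested with at least 50 UMIs over both sums (for shares of all genes also a mean of 20 CPM) and as called past 1.5-fold. Genes named beyond the 8 were the 10 most like their mean and, from each list, those past 1.5-fold or the 2 most abundant, of which 1 is not reported here. The ratio code was checked on simulated counts. TMM came from edgeR 4.0.16. Alternatives changed the cell filter, clustering, scaling, weighting of cells and the treatment of shared barcodes.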

Additional observations from a re-analysis of the deposited data

Results flagged for a closer look

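Siglech, Tmem119 and the sum of the 8 genes lay on opposite sides of 0 in 2 populations of the same libraries. The log2 ratio of Het over WT was -0.50 in the microglia-like class and 0.93 in the cluster led by Gpnmb for Siglech, -0.17 and 0.33 for Tmem119, and -0.16 and 0.16 for the sum. Each interval left out 0, but with 1 library per genotype the difference between the populations was not tested. Without barcodes listed in both libraries the class had -0.19 (-0.34 to -0.04) for Siglech, -0.02 (-0.12 to 0.09) for Tmem119 and -0.02 (-0.06 to 0.02) for the sum. The intervals of Tmem119 and the sum then included 0.

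Barcodes that the cell filter left out also held UMIs of the 8 genes: 430 CPM (386 to 478) in 348 Het barcodes and 764 CPM (701 to 832) in 410 WT barcodes, with a median of 701 and 711 UMIs each.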

How the results depend on the processing

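No paired analysis was possible because there is 1 library per genotype. Leaving out a replicate leaves no comparison. The summed ratios past 1.5-fold (Xist-marked over Y-marked, and microglia-like over monocyte-like) kept their sign in every alternative run. For Xist-marked over Y-marked cells the interval included 0 with no cell filter and when clustered with the 8 genes. The Het over WT sum, which was not past 1.5-fold, changed sign with each library clustered alone, where the class held 184 Het cells rather than 264. For single genes only the count past 1.5-fold was rerun, without their signs. The settings by deep, shallow or finer cluster, with marks read after thinning and without cells of both marks were chosen after seeing the data.

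The summed log2 ratio of Het over WT in the class (-0.16) kept its sign in 18 of 19 alternatives, some of which had an interval that included 0 (below). It was -0.059 with no cell filter, -0.25 when clustered with the 8 genes, -0.31 at resolution 0.25, -0.019 without shared barcodes, -0.033 with cells weighted equally, -0.069 after thinning, -0.21 with TMM, -0.20 with median-of-ratios scaling, -0.68 in Xist-marked cells, 0.39 with each library clustered alone, -0.11 in the deep cluster, -0.30 in the shallow one and -0.10 in the Adamts1-led one. The interval included 0 with no cell filter (-0.14 to 0.02), after thinning (-0.15 to 0.01) and without shared barcodes (-0.06 to 0.02). Cells weighted equally had no interval. With no cell filter, with the 8 genes and at resolution 0.25 the class held 0, 4 and 1 of the 336 deep cells. It held 289, 309 and 317 of the 320 shallow ones. The cause of these shifts was not tested. The count of members past 1.5-fold, 0, became 1 at resolution 0.25, 1 in the deep and 1 in the shallow cluster, 2 with each library alone and 6 in Xist-marked cells.

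The log2 ratio of Xist-marked over Y-marked WT cells (1.73) was 0.42 with no cell filter, 1.63 with a stricter one, 0.26 when clustered with the 8 genes, 1.20 at resolution 1.0, 1.82 at 0.25, 1.60 after thinning, 1.93 in the deep cluster, 1.52 with marks read after thinning and 1.51 without the F10-led cells. With no filter, at resolution 0.25 and with the 8 genes, at most 4 of the 336 deep cells stayed in the class. With no filter the ratio rested on 3 Xist-marked and 13 Y-marked cells, with an interval from -0.22 to 0.995. It rested on 4 and 17 cells at resolution 0.25 (1.52 to 2.11) and on 4 and 16 with the 8 genes (-0.27 to 0.76).

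The log2 ratio over monocyte-like cells in Het (3.88) was 4.05 with a stricter filter, 3.77 when clustered with the 8 genes, 2.85 at resolution 1.0, 3.64 at 0.25 and 5.40 without Selplg. In WT (3.95) it was 3.58 with no filter, 4.08 with a stricter one, 4.04 when clustered with the 8 genes, 3.15 at resolution 1.0, 3.82 at 0.25, 3.85 without shared barcodes, 4.09 after thinning, 4.04 without cells rich in S100a8 and S100a9, and 5.29 without Selplg. At resolution 1.0 the F10-led cells, 44 Het and 84 WT, counted as monocyte-like in this ratio. Depth limits Slc2a5 and P2ry13 most, with 184 and 328 UMIs in the Het class.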

Other observations

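In dendritic cell-like WT cells P2ry12 stood at 481 CPM in 23 Xist-marked and 32.7 CPM in 127 Y-marked cells, and Tmem119 at 465 and 80.7 CPM. In WT monocyte-like cells, where 7 cells were Xist-marked and 342 Y-marked, the sum of the 8 genes was 361 and 328 CPM. Without Selplg it was 160 CPM (8 UMIs) and 82.6 CPM (285 UMIs), a log2 ratio of 0.96 (-0.27 to 1.95).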
